A study of Homo sapiens with 4 samples.

Results

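Levels of 8 genes that mark 293T against A549 cells were followed across 12 RNA sequencing libraries. The genes are IRS4, NEFM, NEFL, INA, CKB, UCHL1, HEY1 and BEX4. These 8 of the 26348 listed genes were chosen by their measured FPKM in 293T against A549 or as known markers of 293T, with UCHL1 taken in as the exception, so their levels by line are given as a description and no difference between the lines is tested. The study compared cells kept for 2 h in a magnetic field (exposed) with cells that received no field (control), in 293T, a human renal epithelial line, and in A549, which derives from a lung cancer of the non-small cell type. Each of the 4 groups (293T exposed, 293T control, A549 exposed, A549 control) has 3 libraries. 293T is a derivative of embryonic kidney cells that carries adenoviral genes and the large T antigen of SV40, and both the exposed and the control 293T cells share this background. Whether the 3 libraries of a group are separate cultures is not stated, and their spread, on which each p-value rests, may therefore be technical. The strength and source of the field are not given in the sources used here.

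Neurons build their axonal skeleton from intermediate filaments, in which the light and medium neurofilament chains (NEFL and NEFM) and alpha-internexin (INA) assemble together. Creatine kinase B (CKB) passes phosphate between ATP and creatine in brain and other tissues with a high energy demand, and UCHL1 is an abundant neuronal enzyme that cleaves ubiquitin from short adducts. IRS4 is an adaptor of the insulin receptor substrate family, HEY1 is a repressor of the basic helix-loop-helix class that Notch signalling induces, and BEX4 belongs to a family of small X-linked proteins found in brain. Cells of embryonic kidney origin are known to express several neuronal genes.

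IRS4 and BEX4 lie on chromosome X, INA on chromosome 10, CKB on chromosome 14 and UCHL1 on chromosome 4. In GENCODE release 29 (GRCh38) the basic set gives IRS4 1 exon, INA 3 exons and CKB 8 exons in their single transcript, and UCHL1 8 to 10 exons in 4 transcripts. Promoter windows from RefSeq (GRCh38.p14), 250 bases before and 50 after the annotated start, were matched for 5 of the 8 genes. Windows of 4 genes are shown here, for the 3 genes with the highest levels in 293T (CKB, IRS4 and UCHL1) and for INA, which rose in exposed 293T cells. Each runs 5′ to 3′ on the strand of the gene. Capitals mark every match, on either strand, to the TATA box motif TATAAA, the promoter motif CCAAT, the Sp1 motif GGGCGG, the E-box motif CACGTG or the heat shock element GAANNTTC; a match on the other strand appears as its reverse complement. The windows are chr14:103522781-103523080 on the minus strand for CKB, chrX:108736514-108736813 on the minus strand for IRS4, chr4:41256678-41256977 on the plus strand for UCHL1 and chr10:103276888-103277187 on the plus strand for INA.
CKB: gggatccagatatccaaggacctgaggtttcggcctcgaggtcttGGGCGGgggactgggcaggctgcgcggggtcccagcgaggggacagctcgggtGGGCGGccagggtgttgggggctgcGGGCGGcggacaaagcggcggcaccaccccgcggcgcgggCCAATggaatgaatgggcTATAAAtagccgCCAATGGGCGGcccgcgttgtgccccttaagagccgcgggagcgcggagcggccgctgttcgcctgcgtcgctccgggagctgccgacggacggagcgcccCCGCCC
IRS4: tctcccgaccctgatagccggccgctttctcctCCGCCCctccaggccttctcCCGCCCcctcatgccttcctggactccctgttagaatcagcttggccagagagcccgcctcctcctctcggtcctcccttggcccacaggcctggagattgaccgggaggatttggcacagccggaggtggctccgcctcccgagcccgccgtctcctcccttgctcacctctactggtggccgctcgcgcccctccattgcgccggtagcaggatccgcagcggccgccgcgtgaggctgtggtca
UCHL1: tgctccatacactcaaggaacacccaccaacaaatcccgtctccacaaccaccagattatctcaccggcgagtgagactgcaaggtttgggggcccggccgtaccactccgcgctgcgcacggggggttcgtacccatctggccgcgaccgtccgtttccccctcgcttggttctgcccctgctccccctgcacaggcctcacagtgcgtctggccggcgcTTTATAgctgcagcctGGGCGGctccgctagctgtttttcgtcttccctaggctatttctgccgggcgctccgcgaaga
INA: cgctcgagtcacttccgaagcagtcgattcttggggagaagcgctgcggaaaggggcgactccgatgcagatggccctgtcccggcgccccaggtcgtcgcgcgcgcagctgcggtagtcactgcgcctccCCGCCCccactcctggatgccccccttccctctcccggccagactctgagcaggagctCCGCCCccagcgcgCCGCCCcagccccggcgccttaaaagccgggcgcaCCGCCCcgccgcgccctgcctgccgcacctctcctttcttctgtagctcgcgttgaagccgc

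The CKB window holds TATAAA once, 69 to 64 bases before the start, 2 matches to CCAAT and 5 to GGGCGG, the CCAAT nearer the start lying directly before a GGGCGG. The UCHL1 window holds TATAAA on the opposite strand 29 to 24 bases before the start and 1 GGGCGG. IRS4 and INA have no TATAAA in their windows, with 2 and 4 matches to GGGCGG, all on the opposite strand. The BEX4 window (chrX:103214842-103215141, plus strand) holds 1 GGGCGG and 1 CACGTG, the latter across the start. GAANNTTC, the heat shock element searched, was found in none of the 5 windows. Of all 35116 windows of this length, 11.53% hold TATAAA, 34.61% CCAAT, 44.95% GGGCGG, 7.256% CACGTG and 6.769% GAANNTTC. The windows hold 36 CpG sites (CKB), 35 (INA), 25 (UCHL1), 23 (IRS4) and 16 (BEX4), all above the median of 14 over all windows. A match is a description of these letters and not a bound site.

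Values are FPKM, fragments per kilobase of gene scaled to library depth, which are set per length and can be compared between genes. In 293T controls CKB was the most abundant of the 8 genes, at 507, 487 and 484 FPKM, on average the 90th highest of 13811 genes with a usable level. IRS4 followed at 219.6, 222.6 and 223.0 FPKM, then UCHL1 at 101.3, 102.2 and 102.5 FPKM. HEY1 stood at 90.5, 93.3 and 95.6 FPKM and BEX4 at 78.8, 83.1 and 85.4 FPKM. The order ended with the filament genes, of which NEFM and NEFL are on chromosome 8, as is HEY1. They were NEFM at 41.6, 43.2 and 42.3 FPKM, NEFL at 16.8, 17.7 and 17.3 FPKM and INA at 13.6, 13.5 and 14.1 FPKM. The ranges of neighbours in this order did not overlap in 293T controls. In exposed 293T cells NEFL (16.9 to 18.1 FPKM) and INA (15.3 to 18.9 FPKM) overlapped, while the other neighbours stayed apart.

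In A549 the order was another one. UCHL1 was by far the highest, at 410.0, 411.8 and 413.0 FPKM in controls, and CKB came next at 17.8, 15.6 and 17.4 FPKM. INA was at 8.10, 7.83 and 8.06 FPKM and NEFL at 3.75, 3.73 and 3.90 FPKM. The other 4 genes stayed below 0.5 FPKM in each A549 control library, HEY1 at 0.342 to 0.374, BEX4 at 0.0583 to 0.466, IRS4 at 0.0655 to 0.394 and NEFM at 0.0144 to 0.0863 FPKM. HEY1, BEX4 and IRS4 overlap there, and NEFM overlaps BEX4 and IRS4.

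**Figure D1:**
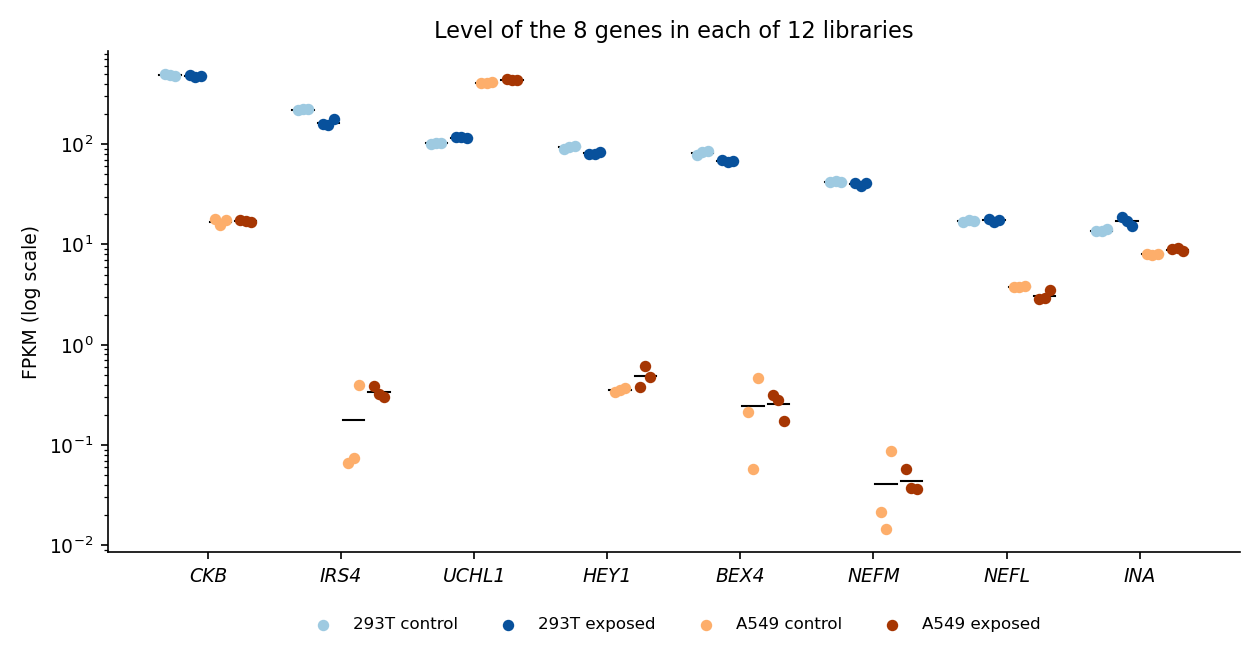
FPKM (log axis) of the 8 genes in each of the 12 libraries; points are libraries, black lines are means of 3, and colours are the 4 groups. IRS4, HEY1, BEX4 and NEFM fall below 0.7 FPKM in A549, CKB, NEFL and INA are lower but present, and UCHL1 is higher in A549 than in 293T.

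The 8 genes therefore covered a wide span of differences between the lines. By ratio of control means IRS4 was 1244-fold and NEFM 1040-fold higher in 293T, BEX4 336-fold, HEY1 261-fold and CKB 29.1-fold. NEFL was 4.55-fold and INA 1.72-fold higher, and UCHL1 was 4.03-fold higher in A549. These ratios chose the genes and are not tested; of all genes tested, 88.3% differed between the control lines by limma at an adjusted p under 0.05, 32.4% higher and 55.9% lower in A549. The largest of them rest on few counts in A549, with 171 IRS4 counts and 17 NEFM counts over the 3 controls against 210358 and 17479 in 293T.

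The low values in A549 were set beside those of other 293T genes. As a share of its mean in the 293T libraries, IRS4 was at 0.0340%, 0.0390% and 0.205% in the A549 controls and at 0.201%, 0.168% and 0.155% in the exposed libraries. NEFM was at 0.0521%, 0.0348% and 0.209% in the controls and at 0.140%, 0.0894% and 0.0875% in the exposed libraries. For comparison, 16 other genes with at least 20 FPKM in 293T and under 0.5% of that in A549 had median shares of 0.0458%, 0.1002% and 0.279% in the controls and 0.224%, 0.204% and 0.161% in the exposed libraries. Control replicate 3 was thus the control with the highest share for IRS4, for NEFM, for BEX4 and for the median of the 16 genes, and A549 genes were found in 293T libraries at median shares of 0.103% to 0.210% (77 genes chosen the same way). HEY1 lay above those medians in all 6 A549 libraries, at 0.392% to 0.698%. The 16 genes were chosen for a mean share under 0.5%, which limits their medians, so this does not set HEY1 apart. Whether the reads at these levels came from A549 cells was not tested.

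**Figure D2:**
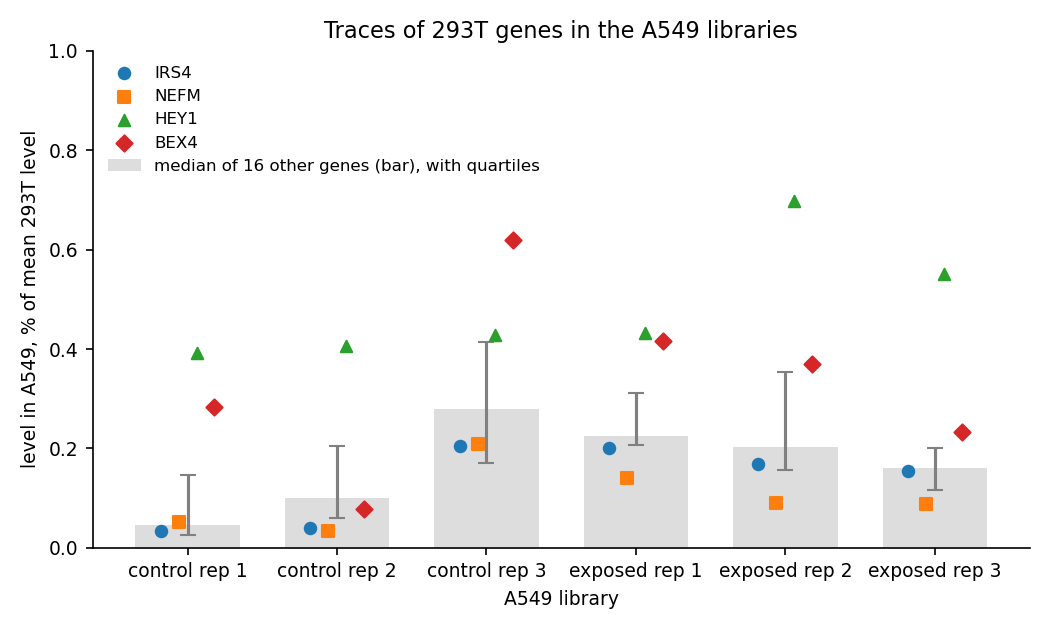
Level of IRS4, NEFM, HEY1 and BEX4 in each A549 library as a percentage of the gene's mean in the 6 293T libraries (points), with the median of 16 other 293T genes (grey bars) and its quartiles (grey lines). IRS4 and NEFM, like the bars, are highest in control replicate 3 among the controls. HEY1 stays above the bars, which are limited by the choice of genes with a mean share under 0.5%.

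The lines were checked against markers of their labelled tissues and against neuronal genes. Of 16 listed kidney genes 4 reached a mean of 1 FPKM in 293T controls, the highest being SALL1 (10.8 FPKM), a factor of the developing kidney, and SLC34A1, a transporter of the proximal tubule, was at 0; in A549 controls 6 of them reached 1 FPKM. Of 16 listed lung genes 10 reached 1 FPKM in A549 controls, led by the keratin KRT18 (1665 FPKM), while the surfactant gene SFTPC was at 0. Of 10 fibroblast genes 3 reached 1 FPKM in 293T controls and 1 in A549 controls. Of 26 general neuronal genes 12 reached 1 FPKM in 293T controls and 11 in A549 controls, and their summed level was lower in 293T (85.8 to 88.5 FPKM) than in A549 (215 to 221 FPKM). Gene by gene, 15 of the 26 had the higher control mean in 293T and 11 in A549. Named after their values were seen, the adhesion molecule NCAM1 was at 2.92 FPKM in 293T controls and 0.00514 FPKM in A549 controls, the RNA-binding protein ELAVL2 at 3.62 and 0.0539 FPKM, and the tubulin TUBB2B at 19.3 and 2.62 FPKM. The neuron-specific tubulin TUBB3 went the other way, at 6.51 FPKM in 293T and 113 FPKM in A549, and so did the synaptic protein SNAP25, at 0.155 and 5.74 FPKM. TUBB3 made up much of the A549 sum, and without it the sums were 79.4 to 81.7 FPKM in 293T and 104.7 to 105.3 FPKM in A549. The list thus gave no single direction between the lines, and the 8 genes are called here by name.

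The test that did not choose the genes was that of exposed against control within each line. In 293T 2 of the 8 rose and 3 fell, 5 of 8 in either direction against 38% of all 13811 genes tested (13.7% higher, 24.2% lower). In A549 1 rose and 1 fell, 2 of 8 against 40.2% of all genes (13.3% higher, 26.9% lower). IRS4, NEFM, HEY1 and BEX4 were in that test only through their 293T libraries, with 2 to 126 counts in A549. With A549 fitted alone the other 4 were tested, and 2 rose and 1 fell. Of all 12271 genes in that fit 4927 passed (1590 higher, 3337 lower), and nothing is read from 4 genes. Among the 8 genes, the largest change that passed in the fit of both lines was 1.36-fold (IRS4 in 293T). The median log2 fold change of the 8 was -0.05 in 293T and 0.06 in A549, against -0.03 and -0.04 over all genes. The shares and medians over all genes are also the background for the gene lists below, which were not tested as sets. Fold changes are differences of log2(FPKM + 1), which understates them for low genes, with adjusted p from limma and Benjamini-Hochberg adjustment over all genes tested. In bulk RNA, fewer cells of a kind and less RNA per cell cannot be told apart.

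**Figure D3:**
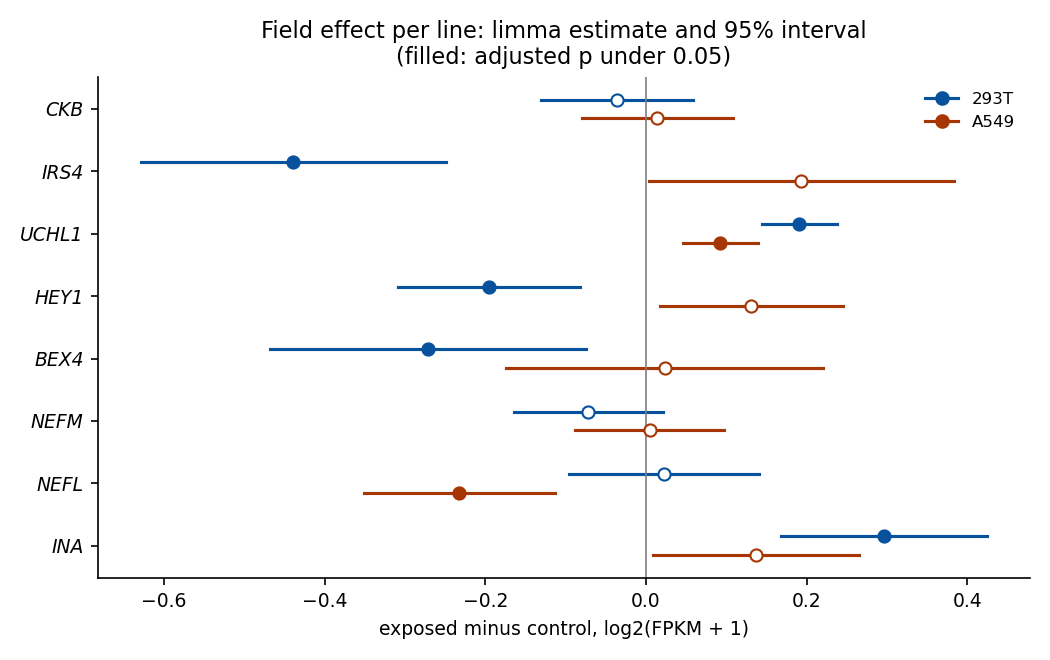
Difference between exposed and control libraries on the log2(FPKM + 1) scale for each gene in 293T (blue) and A549 (brown), with 95% intervals from the limma fit; filled points have an adjusted p under 0.05. In 293T IRS4, BEX4 and HEY1 lie to the left of 0 and INA and UCHL1 to the right, and in A549 NEFL lies to the left and UCHL1 to the right.

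IRS4, the adaptor between insulin and growth factor receptors and phosphoinositide 3-kinase, fell in 293T. It was at 159, 154 and 178 FPKM in exposed libraries against 219.6, 222.6 and 223.0 FPKM in controls, and each exposed library lay below each control. The mean went from 222 ± 1.86 to 164 ± 12.6 FPKM (SD, n = 3 each), 1.36-fold lower (log2 fold change -0.44, SE 0.09, limma adjusted p = 0.00225). With a pseudocount of 0.1 the value was the same (-0.44) but limma gave an adjusted p of 0.291. The fit takes 1 spread per gene over both lines, and with 293T fitted alone the adjusted p was 5.74e-04. IRS4-AS1, an antisense gene that shares 24 bases with the start of IRS4, was at 8.42 ± 0.341 FPKM in controls and 7.73 ± 0.445 FPKM in exposed libraries (adjusted p = 0.0863). Its counts were 1108 in all 293T controls against 210358 for IRS4, and reads in the shared bases cannot be assigned, as no strand setting is given.

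In A549 IRS4 was at 0.388, 0.325 and 0.299 FPKM in exposed libraries and 0.0655, 0.0751 and 0.394 FPKM in controls, and the groups overlapped through control replicate 3. The difference of 0.19 (SE 0.09) had an adjusted p of 0.0992, and without control replicate 3 it was 0.32 (adjusted p = 0.00162). It also passed in 4 other alternatives, with a pseudocount of 0.1 (0.84, adjusted p = 0.0462), quantile normalization (0.25, 0.0477), median centring (0.25, 0.0379) and limma-voom on recovered counts (1.41, 0.0413). IRS4 entered these tests only through its 293T libraries and was not tested with A549 fitted alone, so nothing is read from these calls. The median share of the 16 other 293T genes in these libraries moved the same way, as given above, and its part in the value was not tested. The effect of the field on IRS4 differed between the lines by 0.63 on the log2 scale (A549 minus 293T, SE 0.12, limma adjusted p = 0.00696). Over 21 alternatives this value ran from 0.57 to 1.85, and it did not pass with a pseudocount of 0.1 (adjusted p = 0.0889). On this scale IRS4 could fall by at most 0.24 in A549, from its mean control level to 0.

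IRS1 and IRS2, relatives of IRS4 named after their values were seen, were at 0.650 and 1.03 FPKM in 293T controls and at 21.4 and 6.68 FPKM in A549 controls. Of 24 genes of insulin and IGF signalling, 6 rose and 6 fell in 293T (median 0.02), and 1 rose and 10 fell in A549 (median -0.01). Among all genes tested 13.7% rose and 24.2% fell in 293T, and 13.3% rose and 26.9% fell in A549 (medians -0.03 and -0.04). In 293T the regulatory subunit gene PIK3R2 fell from 25.8 ± 0.693 to 19.7 ± 1.06 FPKM (log2 fold change -0.37, limma adjusted p = 7.10e-05), the kinase AKT1 had -0.20 and the docking protein GAB1 0.19. In A549 PIK3R1 went from 2.98 ± 0.0346 to 1.84 ± 0.196 FPKM, a log2 fold change of -0.49, PIK3R2 had -0.28 and the exchange factor SOS1 0.27. PTPN11, the phosphatase SHP2 and the most abundant gene of the list in 293T controls at 54.2 FPKM, had a log2 fold change of 0.02 there (adjusted p = 0.773).

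Of the 3 filament genes, INA passed the test in 293T, NEFL in A549 and NEFM in neither line; the genes were not tested against each other. INA rose in 293T, from 13.6, 13.5 and 14.1 FPKM in controls to 18.9, 17.3 and 15.3 FPKM in exposed libraries, with no overlap. The means were 13.7 ± 0.338 and 17.2 ± 1.81 FPKM (SD, n = 3 each), 24.9% higher (log2 fold change 0.30, SE 0.06, limma adjusted p = 0.00223). In A549 INA was at 8.94, 9.14 and 8.60 FPKM in exposed libraries and 8.10, 7.83 and 8.06 FPKM in controls, again with no overlap, but its log2 fold change of 0.14 (95% interval 0.01 to 0.27) had an adjusted p of 0.0835. It passed with A549 fitted alone (adjusted p = 0.0346), with quantile normalization or median centring, and without 293T exposed replicate 1 or 3. The difference between the lines was -0.16 (adjusted p = 0.244), and without 293T exposed replicate 3 it was -0.23 (adjusted p = 0.0281).

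NEFL changed in the other line. In A549 it was at 2.85, 2.94 and 3.48 FPKM in exposed libraries against 3.75, 3.73 and 3.90 FPKM in controls, each exposed library below each control. The mean fell from 3.79 ± 0.0911 to 3.09 ± 0.341 FPKM (SD, n = 3 each), 1.23-fold lower (log2 fold change -0.23, SE 0.05, limma adjusted p = 0.00494). In 293T NEFL was at 18.1, 16.9 and 17.7 FPKM in exposed libraries and 16.8, 17.7 and 17.3 FPKM in controls, which overlap (log2 fold change 0.02, 95% interval -0.10 to 0.14). The difference between the lines was -0.25 (adjusted p = 0.0494) and lay at the threshold. It was lost in 18 of 21 alternatives, among them 11 of the 12 that leave out 1 library (all but the one without A549 exposed replicate 3), with adjusted p from 0.00554 to 0.110 over the alternatives.

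NEFM was at 41.0, 38.5 and 41.3 FPKM in exposed 293T libraries and 41.6, 43.2 and 42.3 FPKM in controls. The highest exposed library lay just below the lowest control, and the log2 fold change of -0.07 (95% interval -0.16 to 0.02) did not pass (limma adjusted p = 0.209). In A549 NEFM had 8, 5 and 5 counts in exposed libraries and 3, 2 and 12 in controls.

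As shares of the summed FPKM of the 3 filament genes, NEFM made up 57.7% ± 0.359, NEFL 23.5% ± 0.239 and INA 18.7% ± 0.526 in 293T controls (SD, n = 3). In exposed 293T cells the INA share was 22.9% ± 1.97 and that of NEFM 53.7% ± 1.63, and for both genes the exposed and control ranges did not overlap. The sum itself was 73.4 ± 1.29 FPKM in controls and 74.99 ± 2.75 FPKM in exposed libraries. In A549 controls INA made up 67.6% ± 0.646 and NEFL 32.1% ± 0.399 of a sum of 11.8 ± 0.239 FPKM, and in exposed A549 cells they made up 74.0% ± 2.58 and 25.7% ± 2.64. The INA share was thus higher in the exposed libraries of both lines, with the share of NEFM lower in 293T and that of NEFL lower in A549. The shares are parts of the same sum, so they cannot change independently and are not separate findings. As genes, NEFM did not pass in 293T (limma adjusted p = 0.209), nor INA in A549 (0.0835).

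**Figure D4:**
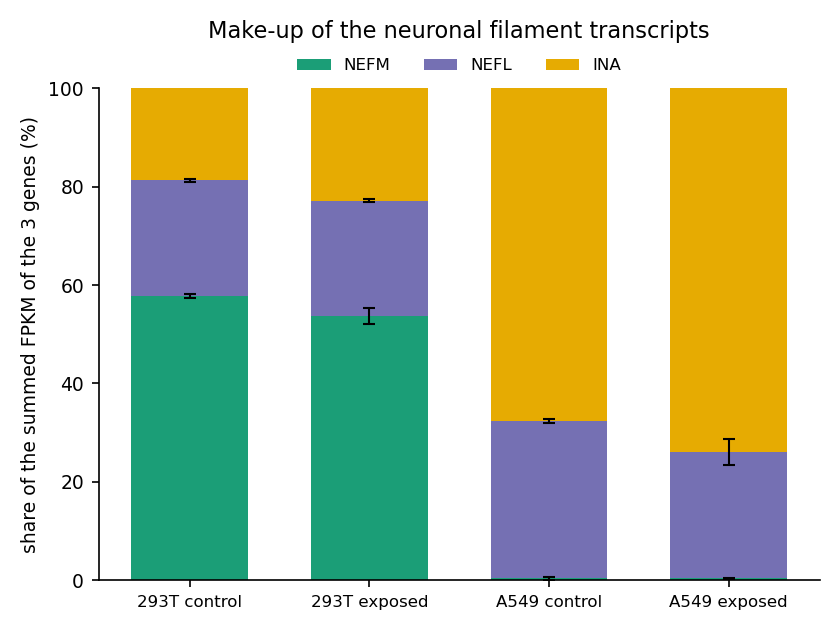
Share of the summed FPKM of NEFM, NEFL and INA taken by each gene in the 4 groups (bars, means of 3 libraries; error bars, SD of the NEFM and NEFL shares). NEFM is the main part in 293T and nearly missing in A549, where INA makes up most of the sum.

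NEFH, the heavy chain, and PRPH, peripherin, the other neuronal filament genes, were named after their values were seen and lay at 0.0939 and 0.463 FPKM in 293T controls, below the filter. Of 15 listed relatives, lamins, keratins and other filaments, 11 were tested. In 293T 2 rose and 2 fell, and in A549 4 rose and 5 fell, beside 38% and 40.2% of all genes in either direction. VIM, vimentin, the most abundant of the 15 listed in 293T, rose there from 329 ± 1.49 to 393 ± 33.4 FPKM (log2 fold change 0.25, limma adjusted p = 0.00138), KRT8 had 0.12, and SYNC, syncoilin, had -0.15. SYNC was at 0.261 FPKM in 293T controls and 0.137 FPKM in exposed 293T libraries. It entered the test only through its A549 libraries, so nothing is read from its fall in 293T. In A549 SYNC had -0.40, the lamin LMNA went from 146 ± 2.81 to 111 ± 1.03 FPKM (-0.39) and KRT19 had -0.31.

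UCHL1, the exception among the 8 genes, rose in both lines. In 293T it was at 117, 118 and 115 FPKM in exposed libraries against 101.3, 102.2 and 102.5 FPKM in controls, with means of 117 ± 1.77 and 102 ± 0.614 FPKM (SD, n = 3 each; 14.3% higher, log2 fold change 0.19, SE 0.02, limma adjusted p = 8.07e-05). In A549 it was at 444, 439 and 434 FPKM against 410.0, 411.8 and 413.0 FPKM, 6.63% higher (log2 fold change 0.09, SE 0.02, adjusted p = 0.00472). Exposed libraries lay above controls in both lines, and the replicates lay so close together that small differences passed. The value in A549 turned to -0.03 with quantile normalization (adjusted p = 0.398), while that in 293T ran from 0.18 to 0.22 over the alternatives. The difference between the lines was -0.10 (adjusted p = 0.0530). It passed in 4 of 21 alternatives, without the filter, with quantile normalization (-0.21, adjusted p = 0.00238), with mitochondrial genes left out of the sum and without 293T exposed replicate 3.

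The other ubiquitin C-terminal hydrolases were followed as its family. Of 3 genes tested, UCHL5 (-0.20, adjusted p = 0.0488) and BAP1 (-0.19, adjusted p = 0.00498) fell in 293T and BAP1 (-0.14, adjusted p = 0.0246) in A549. BAP1, a nuclear tumour suppressor and the most abundant of the 3 in 293T, went from 55.8 ± 0.365 to 48.8 ± 1.70 FPKM there.

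CKB, whose promoter window holds the most motif matches of those shown, passed the test in neither line. In 293T it was at 494, 473 and 474 FPKM in exposed libraries and 507, 487 and 484 FPKM in controls, ranges that overlap (log2 fold change -0.04, 95% interval -0.13 to 0.06, limma adjusted p = 0.553). In A549 it was at 17.6, 17.0 and 16.7 FPKM against 17.8, 15.6 and 17.4 FPKM (0.01, 95% interval -0.08 to 0.11). With quantile normalization the 293T value was -0.16 (adjusted p = 0.0311). Among 5 tested genes of creatine handling, 1 rose and 1 fell in 293T and 0 passed in A549 by limma, with 0 at an unadjusted p under 0.05 and 0 by limma-voom. SLC6A8, the creatine transporter and the most abundant of them in 293T, fell from 32.8 ± 0.908 to 25.2 ± 1.502 FPKM (log2 fold change -0.37, limma adjusted p = 1.96e-04). The mitochondrial kinase CKMT1B rose from 5.98 ± 1.70 to 9.84 ± 0.679 FPKM, but reads may be shared with its near-identical copy CKMT1A, so both values are uncertain.

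HEY1, the Notch-induced repressor, fell in 293T. It was at 79.0, 80.2 and 84.5 FPKM in exposed libraries and 90.5, 93.3 and 95.6 FPKM in controls, with no overlap. The mean went from 93.1 ± 2.55 to 81.2 ± 2.88 FPKM (SD, n = 3 each), 12.8% lower (log2 fold change -0.20, SE 0.05, limma adjusted p = 0.0115). This did not pass with a pseudocount of 0.1 (adjusted p = 0.172) or after rescaling to TPM (0.0627), and held with 293T fitted alone (0.00381). In A549 HEY1 was at 0.377, 0.608 and 0.480 FPKM in exposed libraries, from 36, 57 and 46 counts, and at 0.342, 0.353 and 0.374 FPKM in controls, from 33, 34 and 36 counts. The lowest exposed library lay just above the highest control, and the log2 fold change of 0.13 had an adjusted p of 0.0637, which passed in 6 of 21 alternatives (adjusted p from 0.0118 to 0.255), among them the one without A549 exposed replicate 1. The field effects differed between the lines by 0.33 (A549 minus 293T, SE 0.07, limma adjusted p = 0.0142), though not by limma-voom on recovered counts (adjusted p = 0.207). HEY1 entered these tests only through its 293T libraries, and with A549 fitted alone it was not tested. In A549 it could fall by at most 0.44 on the log2(FPKM + 1) scale, so its A549 values lie near the floor.

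Of 18 tested genes of the Notch pathway and its HES and HEY factors, 2 rose and 4 fell in 293T, and 3 rose and 9 fell in A549 (medians -0.02 and -0.19). The shares over all genes were 13.7% higher and 24.2% lower in 293T, and 13.3% higher and 26.9% lower in A549 (medians -0.03 and -0.04). In 293T HEYL, a relative of HEY1, went from 2.38 ± 0.111 to 1.73 ± 0.301 FPKM (log2 fold change -0.32, limma adjusted p = 0.00420), the receptor NOTCH3 had -0.31 and the ligand DLL1 -0.22. NOTCH2, the most abundant of the list in 293T controls at 26.5 FPKM, had -0.03 (adjusted p = 0.600). In A549 the receptor NOTCH1 rose from 3.23 ± 0.133 to 6.12 ± 1.10 FPKM and the ligand JAG1 from 16.5 ± 0.239 to 26.4 ± 1.43 FPKM, and JAG2 had -0.56.

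BEX4 also fell in 293T. Exposed libraries were at 69.1, 67.0 and 68.2 FPKM and controls at 78.8, 83.1 and 85.4 FPKM, so the groups lay clearly apart. The mean went from 82.4 ± 3.36 to 68.1 ± 1.01 FPKM (SD, n = 3 each), 17.4% lower (log2 fold change -0.27, SE 0.09, limma adjusted p = 0.0326). The call was lost without 293T exposed replicate 1, 2 or 3 or 293T control replicate 2 or 3 (adjusted p from 0.0620 to 0.0977), without the filter (0.0827), after rescaling to TPM (0.229) and with a pseudocount of 0.1 (0.553), with the value between -0.30 and -0.24 throughout. With 293T fitted alone, which leaves the A549 counts of 3 to 24 out of the spread, adjusted p = 0.00104. In A549 BEX4 was at 0.313, 0.279 and 0.176 FPKM in exposed libraries and 0.213, 0.0583 and 0.466 FPKM in controls, which overlap.

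The BEX and TCEAL genes, small X-linked relatives that lie in one cluster, were followed as its family. Of 9 tested, 1 rose and 5 fell in 293T and 1 rose and 3 fell in A549 (medians -0.15 and -0.04). Falls made up 24.2% of all genes tested in 293T and 26.9% in A549 (medians -0.03 and -0.04). TCEAL1 fell from 21.7 ± 0.591 to 16.3 ± 0.826 FPKM in 293T (log2 fold change -0.39, limma adjusted p = 3.01e-04) and had -0.31 in A549. TCEAL3 (-0.33) and TCEAL8 (-0.16) fell in 293T, and TCEAL8 (-0.33) in A549, where TCEAL9 had 0.51 (SE 0.18, limma adjusted p = 0.0402). TCEAL9 ran from 25.8 to 40.5 FPKM in A549 controls and from 38.2 to 56.5 FPKM in exposed A549 libraries, which overlap. The TCEAL3 groups in 293T overlap as well. BEX3, the most abundant of these relatives in 293T, rose slightly, from 199 ± 4.28 to 212 ± 1.01 FPKM (0.09, adjusted p = 0.0378).

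**Figure D5:**
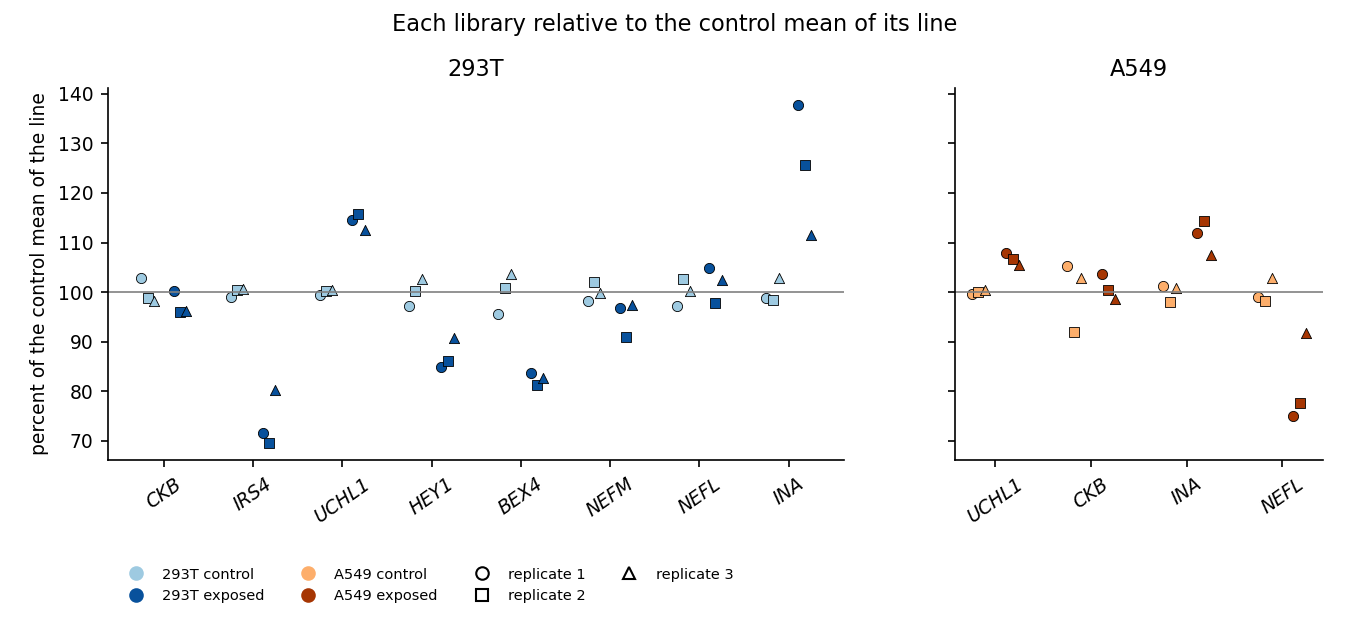
FPKM of each library as a percentage of the control mean of its line, for the 8 genes in 293T and the 4 genes above 1 FPKM in A549; light points are controls, dark points exposed libraries, and shapes are replicate numbers. In 293T exposed replicate 3 (dark triangles) lies nearest to 100 for IRS4 (80.2), HEY1 (90.7), UCHL1 (112) and INA (111), but not for BEX4 (82.7).

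Exposed replicate 3 stood closest to the controls in 4 of the 5 genes that passed in 293T and in both that passed in A549. The inducible chaperone HSPA1B, named because the exposed libraries differ in it, was at 1666, 1437 and 944 FPKM in the exposed 293T libraries and at 197 to 208 FPKM in the controls, and at 500, 608 and 360 FPKM in the exposed A549 libraries. So replicate 3 had the lowest chaperone level of the exposed libraries of each line, and the part of this in the values was not tested. Without it the log2 fold changes in 293T were -0.50 for IRS4, 0.37 for INA, -0.22 for HEY1 and 0.20 for UCHL1, each past the threshold, and -0.27 for BEX4 (adjusted p = 0.0620). In all, exposed and control libraries did not overlap for 6 of the 8 genes in 293T (2 above, 4 below), against 50% of all genes tested (19.1% above, 30.8% below), and for 4 of 8 in A549 (3 above, 1 below), against 49.7% (17.1% above, 32.6% below).

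The difference of the field effect between the lines passed for 3 of the 8 genes (IRS4, HEY1 and NEFL), where 12.5% of all genes tested passed (5.51% higher and 7.03% lower in A549), and nothing is read from this count. IRS4 and HEY1 entered the test only through their 293T libraries, and the A549 side of their difference comes from levels under 0.7 FPKM, where HEY1 could fall by at most 0.44 and BEX4 by at most 0.32 on the log2(FPKM + 1) scale. The call for NEFL was lost in most alternatives, as given above.

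General neuronal genes and their repressor were also followed. Of 17 neuronal genes tested, 2 rose and 2 fell in 293T, and none rose and 7 fell in A549 (medians 0.01 and -0.06). For comparison, 24.2% of all genes tested fell in 293T and 26.9% in A549 (medians -0.03 and -0.04). In 293T the adhesion molecule NCAM1 (0.23) and the microtubule protein MAP1B (0.22) rose and the tubulin TUBB4A (-0.25) fell, while TUBB2B, the most abundant at 19.3 FPKM, had -0.01 (adjusted p = 0.930). In A549 RBFOX3, the splicing factor NeuN, went from 1.26 ± 0.178 to 0.675 ± 0.0860 FPKM (-0.43), L1CAM had -0.36 and TUBB4A -0.34. Of 6 tested genes of the sympathoadrenal and neuroendocrine list, none rose and 2 fell in 293T, INSM1 (-0.53) and HAND2 (-0.26), and none rose and 3 fell in A549, GATA2 (-0.89), HAND2 (-0.20) and CHGB (-0.18). HAND2 was at 0.402 FPKM in A549 controls and 0.222 FPKM in exposed A549 libraries. It passed the filter only through its 293T libraries, so nothing is read from its fall in A549. GATA2 was the most abundant of that list in 293T controls, at 15.97 FPKM.

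REST, the factor that silences neuronal genes outside the nervous system, rose in 293T from 6.57 ± 0.286 to 9.93 ± 0.779 FPKM (log2 fold change 0.53, SE 0.08, limma adjusted p = 4.51e-04) and had 0.08 in A549 (adjusted p = 0.488). Of the 8 genes of REST and its corepressors, 3 rose and 3 fell in 293T, and none rose and 4 fell in A549. In either direction 38% of all genes tested passed in 293T and 40.2% in A549. SIN3A had -0.31 in 293T and -0.80 in A549, RCOR2 -0.25 and -0.35, and RCOR3 -0.38 in A549. HDAC1, the most abundant at 139 FPKM in 293T controls, had 0.10 there.

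The genes most alike to each of the 8 in level and pattern were those with the smallest root mean square difference of log2(FPKM + 1) over the 12 libraries. INA had the closest, HIPK1 (0.07), MORC2 (0.09) and ARID4B (0.11). NEFM was matched by SLIT2 (0.12), HOXD11 (0.15) and LCP1 (0.19), and NEFL by HES4 (0.13), PRKCD (0.15) and SLC18B1 (0.16). UCHL1 was nearest to TKT (0.12), PSAP (0.16) and FLNA (0.25), and IRS4 to AMOT (0.20), PRDX2 (0.26) and HEY1 (0.82). HEY1 and BEX4 were each other's nearest (0.24). KCTD12 (0.58) and HOXD10 (0.60) followed for HEY1, and HOXD10 (0.41) and RADX (0.42) for BEX4. CKB stood most alone, with MARCKSL1 at 0.87, PARP1 at 1.35 and MAZ at 1.38. The likeness is mainly one of level and does not extend to the field effect in each case. SLIT2 had a log2 fold change of -0.30 in exposed 293T cells (limma adjusted p = 6.55e-04), where NEFM had -0.07, and FLNA had -0.14 (adjusted p = 0.00434), where UCHL1 had 0.19. HIPK1, MORC2 and ARID4B had 0.30, 0.26 and 0.25, where INA had 0.30. The likeness is a description over libraries of only 2 lines, chosen over the same exposed libraries.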

How the data were processed

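RNA from 4 groups was sequenced after selection on oligo(dT) beads and priming with random hexamers, per the labels' protocols. The tools named per the submitters' processing notes are HISAT2, HTSeq and fastp, and the build is GRCh38. Their versions, settings and strand are not given in the sources used here. As deposited by the authors, the table holds FPKM values, fragments per kilobase scaled to library depth, for 26348 genes. The steps between these values gave whole counts for 100% of genes within 0.01 counts, with totals of 37171616 to 38883963 per library, used for counts in the text and for limma-voom. Genes with at least 0.5 FPKM in at least 3 libraries (13811, among them all 8 members, IRS4, NEFM, HEY1 and BEX4 only through their 293T libraries) were fitted as log2(FPKM + 1) in limma 3.58.1 (R 4.3.3), all 12 libraries, 1 mean per group, intensity trend, two-sided, threshold 0.05. The fit was tested on simulated counts with the same spread for every gene. Changes were put only into genes well counted in both lines, so genes with few counts are not covered. No replicate columns were identical, and counts of replicates differed by more than sampling noise (chi-square per gene 3.05 to 13.4 over 12 pairs, where sampling alone gives about 1). The members and lists were chosen with earlier results of these data known; the 9 pathway and 3 marker lists go by family or role. Named from each list were up to 3 genes per line past the threshold with the largest change and the most abundant gene; unannotated LOC entries were left out of the nearest genes. Positions are from RefSeq GRCh38.p14 (25419 identifiers matched), read with pandas 2.3.3 under Python 3.11.15. Alternatives were a pseudocount of 0.1, other filters, quantile normalization, median centring, TPM, a sum without mitochondrial genes, lines fitted alone, a replicate block, limma-voom, and leaving out each library.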

Additional observations from a re-analysis of the deposited data

Results flagged for a closer look

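The field effect differed between the lines, by the test of the difference itself, for 3 of the 8 genes. Of all genes tested 12.5% passed, and nothing is read from this count. For IRS4 it was 0.63 higher in A549 than in 293T on the log2 scale, with a fall in 293T and A549 levels under 0.4 FPKM. Over 21 alternatives it ran from 0.57 to 1.85 and did not pass with a pseudocount of 0.1 (limma adjusted p = 0.0889). For HEY1 it was 0.33 higher, again with A549 levels under 0.7 FPKM, and it did not pass by limma-voom (adjusted p = 0.207). Both genes passed the filter only through their 293T libraries, so the A549 side of these differences lies near the floor of the scale. For NEFL it was -0.25 (limma adjusted p = 0.0494), a call lost in 18 of 21 alternatives.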

How the results depend on the processing

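Over 516 comparisons of a gene's field effect with an alternative, 452 kept their direction and side of the threshold, 31 lost the call, 23 gained it and 10 turned sign. The turned values were all small. With quantile normalization UCHL1 in A549 was -0.0286. For CKB in A549 the value was -0.00077 after leaving mitochondrial genes out of the sum and ran from -0.0410 to 0.0499 when 1 library was left out, and its difference between the lines then ran from -0.00443 to 0.0865. In A549 NEFM ran from -0.0134 to 0.0360 and BEX4 from -0.0880 to 0.15 when 1 library was left out. The cause was not tested. The number of all genes called lower in the difference between the lines was 971, and 632 without 293T control replicate 2 and 643 without A549 control replicate 3. Within a line, exposed and control libraries of the same replicate number did not deviate together (correlations between -0.141 and 0.000139 over 6 pairs). Exposed libraries of the same number were not compared across the lines, and exposed replicate 3 had the lowest chaperone level in each line, as given above. Whether they share a run was not tested. With the replicate block 5115 genes were called in 293T against 5243. In that fit HEY1 in A549 passed (limma adjusted p = 0.0482) while NEFL lost its difference (0.0519). Counts of 2 to 126 behind IRS4, NEFM, HEY1 and BEX4 in A549 limit what can be seen there.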
